A study of Mus musculus with 6 samples.

Results

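The nuclear genes that encode subunits of the oxidative phosphorylation complexes were compared between CD24- and CD24+ Mvt1 cells. Members were chosen by symbol, as the annotations that begin with Nduf and a, b, c, s or v followed by a digit, with Uqcr, with Cox4 to Cox8 followed by a letter, or with Atp5, and the 4 Sdh subunit genes. Ndufab1 and the Ndufaf assembly factors thus fall outside. This gave 82 of the 14765 gene annotations in the data, of which 36 belong by symbol to complex I, 4 to complex II, 7 to complex III, 18 to complex IV and 17 to complex V. Among the 82 are 3 genes whose products are not subunits. Cox4nb (now Emc8) belongs to a complex of the endoplasmic reticulum, Atp5sl (now Dmac2) is a complex I assembly factor, and Atp5s (now Dmac2l) is related to it. Ndufa4, counted here with complex I by its symbol, is now placed in complex IV.

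Mvt1 is a mouse mammary epithelial carcinoma line of FVB/N background, derived from a tumour driven by c-Myc and Vegf transgenes under the MMTV promoter. Its cells were stained for CD24, a surface protein anchored in the membrane by a lipid, and sorted into a group with no CD24 on the surface (CD24-) and a group with it (CD24+). The comparison asks how the transcripts of the CD24+ cells, described by the study as the more tumorigenic group, differ from those of the CD24- cells. RNA came from 3 plates of each group, grown without treatment, so 1 cell line and its sorted groups stand behind every value and the p-values measure the spread between plates.

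Oxidative phosphorylation takes place in the inner mitochondrial membrane. Complexes I and II pass electrons from NADH and succinate to coenzyme Q, complex III passes them on to cytochrome c, and complex IV passes them to oxygen. Complexes I, III and IV pump protons as they do so, and complex V, the ATP synthase, makes ATP from the returning protons. Most subunits are encoded in the nucleus, and a few in the mitochondrial genome. Carcinoma cells generally keep the pathway in use beside glycolysis, and the tissue forms of some complex IV subunits mark heart, skeletal muscle, lung or testis.

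The libraries held between 9046025 and 25692147 mapped reads, 71.8% to 74.3% of them annotated to genes, and CD24+ replicate 1 was the shallowest. Levels are given as counts per 1000000 gene reads (CPM) after TMM scaling. Cd24a, the gene of the sorted marker, stood at 12.1, 11.5 and 6.99 CPM in CD24- replicates 1 to 3 and at 73.4, 85.6 and 72.5 CPM in CD24+ replicates 1 to 3, with no overlap between the groups. The keratins Krt8, Krt18 and Krt19 were expressed in both groups, and the sum of 5 luminal epithelial markers ranged from 1848 to 2042 CPM in CD24- and from 759 to 903 CPM in CD24+ cells. Epcam and Cdh1, defining epithelial markers in the same list, had only 6 and 2 reads over all libraries. A fibroblast list (4 of 5 genes annotated) summed to 4.96 to 7.59 CPM in CD24- and 56.5 to 86.0 CPM in CD24+ cells, most of it Pdgfrb, and all 4 were called higher in CD24+ cells. A leukocyte list (3 of 4 annotated) summed to 43.4 to 76.2 CPM against 6.95 to 9.60 CPM, nearly all of it Cd68, with 2 reads of Ptprc over all libraries. A striated muscle list summed to 7.21 to 11.2 CPM against 1.62 to 3.39 CPM, and the basal epithelial, endothelial and adipocyte lists to at most 3.79 CPM in a library. The part of these differences in the results below was not tested. In bulk RNA, fewer cells of a type and less RNA per cell cannot be told apart.

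Across the pathway, more subunit genes were higher than lower in CD24+ cells, by small amounts. Of the 82 members, 76 passed the filter on low counts. In the quasi-likelihood test of edgeR, with Benjamini-Hochberg adjustment over all 11125 genes tested and a threshold of 0.05, 27 of these rose and 5 fell. In the background of all genes tested, 23.8% rose and 22.3% fell, so 27 of 76 members (35.5%) is above the share of all genes that rose and 5 of 76 (6.58%) is below the share that fell. The median log2 fold change (CD24+ over CD24-) was 0.20 over the members and 0.02 over all genes tested. All 3 CD24+ libraries lay above all 3 CD24- libraries for 41 members and below them for 8, against 29.7% and 27.6% of all genes tested. The size of the changes was modest. The called rises ran from 0.27 to 1.11 on the log2 scale, and the called falls, Ndufb11, Uqcrfs1, Uqcrh and Sdhc among them, lay between -0.62 and -0.31. The excess of rises was smaller without CD24+ replicate 1, where 20 of the 76 members and 21.1% of all genes rose. With each distinct sequence counted once, 5 of 75 members rose, below the 19.4% of all genes that did.

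**Figure D1:**
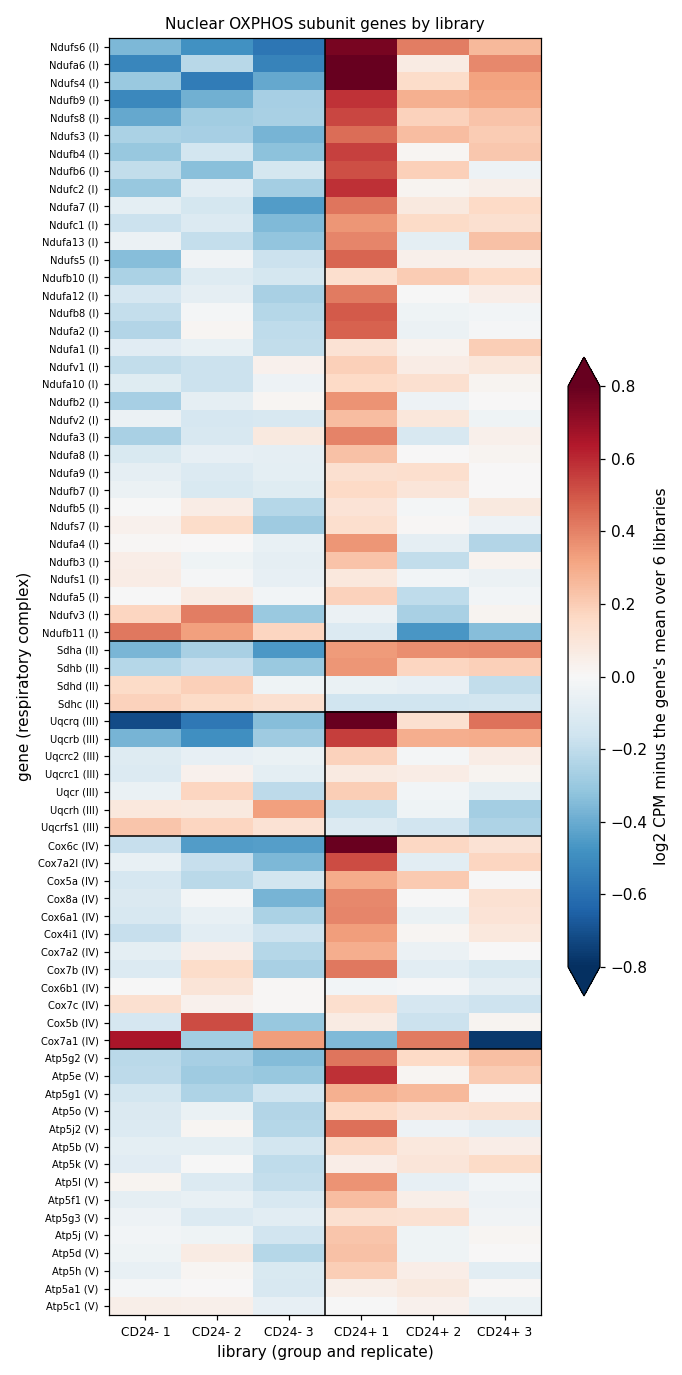
Level of 72 tested subunit genes in each of the 6 libraries, as log2 CPM minus the gene's mean over the libraries (red higher, blue lower), ordered by complex and then by log2 fold change. Ndufs6, Uqcrq, Cox6c and Atp5g2 stand at or near the top of their complexes, the CD24+ replicate 1 column is the reddest, and Ndufb11, Sdhc and Uqcrfs1 run the other way.

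Complex I oxidises NADH. Its peripheral arm holds the N module, which binds NADH, and the Q module, which hands electrons to coenzyme Q, and its membrane arm carries the proton pumps. Of 35 tested genes 13 rose and 2 fell (37.1% and 5.71%, where 23.8% and 22.3% of all genes did), with a median log2 fold change of 0.23. By module, 4 of 10 genes of the N module rose (40%) and none fell (median 0.29), 2 of 6 of the Q module rose (33.3%, median 0.11), and 7 of 18 of the membrane arm rose (38.9%) and 1 fell (median 0.26). Of the 7 nuclear core subunits, the ones conserved from bacteria, 2 rose, and of the 27 accessory subunits 11 rose and 1 fell. No N module gene was lower at an unadjusted p under 0.05 (0 of 10 by edgeR) or by DESeq2 (0), while 1 was called lower without CD24- replicate 3. The medians of the N module, the Q module and the membrane arm were 0.17, 0.07 and 0.19 without CD24+ replicate 1. In that fit 4 of 18 genes of the membrane arm, 7 of 27 accessory subunits and 9 of the 35 complex I genes rose. Of all genes 21.1% rose there, so the membrane arm was near that share, and the accessory subunits and complex I only somewhat above it. The membrane arm also gave 4 rises without CD24- replicate 1, and the median of the Q module was 0.06 without CD24- replicate 3.

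Ndufs6, an accessory subunit of the N module with a zinc site, rose most in complex I. It had 11.4, 10.4 and 9.81 CPM in the CD24- libraries and 24.7, 19.4 and 17.5 CPM in the CD24+ libraries (log2 fold change 0.94, SE 0.15, adjusted p from edgeR 0.000702). The groups were far apart, and every CD24+ library was above the highest CD24- library. Ndufa6, a member of the LYR family at the joint of the peripheral arm, had 22.1, 27.2 and 21.9 CPM against 55.9, 33.2 and 41.4 CPM (0.85, SE 0.18, adjusted p from edgeR 0.00321). Ndufs4, an accessory subunit whose loss causes Leigh syndrome, had 18.002, 14.98 and 16.7 CPM against 38.6, 24.5 and 27.6 CPM (0.84, SE 0.17, adjusted p from edgeR 0.00241). For both genes the groups did not overlap and CD24+ replicate 1 was the highest library. Ndufb9, in the membrane arm, had 58.95, 64.7 and 70.0 CPM against 126, 103 and 104 CPM (0.77, SE 0.10, adjusted p from edgeR 0.000178).

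Among the core subunits, Ndufs8 and Ndufs3 of the Q module rose. Ndufs8, which holds a pair of iron-sulfur clusters, had 22.4, 24.6 and 24.9 CPM in CD24- and 43.1, 33.9 and 34.9 CPM in CD24+ cells (0.62, SE 0.12). Ndufs3 had 54.5, 54.1 and 50.3 CPM against 88.6, 77.1 and 75.0 CPM (0.59, SE 0.09). In both genes every CD24+ library lay above every CD24- library. The flavin subunit Ndufv1 (0.22, adjusted p from edgeR 0.0695) and the largest iron-sulfur subunit Ndufs1 (0.01, adjusted p 0.914) did not pass the test. Ndufb11, an X-linked subunit of the membrane arm, fell most of all members, from 87.2, 81.9 and 73.4 CPM to 60.3, 47.1 and 51.5 CPM (-0.62, SE 0.11, adjusted p from edgeR 0.00103). Ndufa4 had 151, 151 and 144 CPM against 192, 143 and 128 CPM, and its groups overlapped (0.05, SE 0.13). Its paralog Ndufa4l2, a gene known for its induction by hypoxia, had at most 3 reads in a library.

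**Figure D2:**
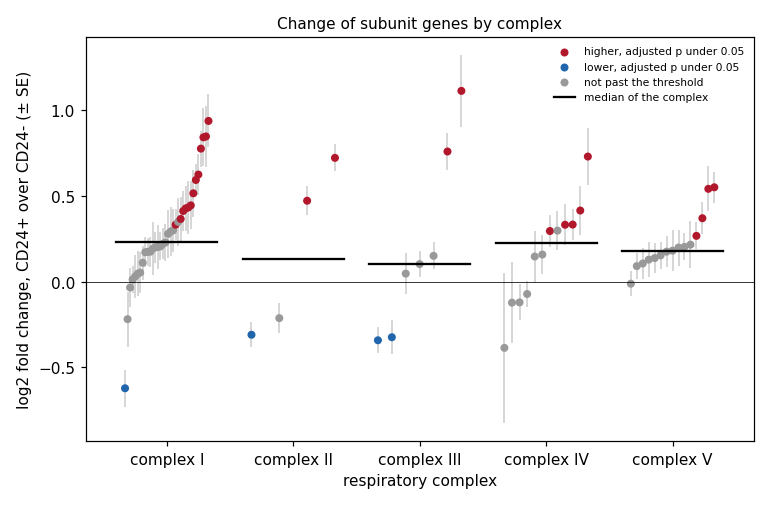
Log2 fold change of 72 tested subunit genes, CD24+ over CD24-, with its SE, by respiratory complex. Complexes I, II and III hold called genes on both sides of 0 and complexes IV and V only above it, and the black lines mark the medians over all tested subunit genes of 0.23, 0.13, 0.10, 0.23 and 0.18.

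Complex II, succinate dehydrogenase, belongs to both the respiratory chain and the tricarboxylic acid cycle, and its 4 subunits are all nuclear. The subunits that form the soluble catalytic head were called higher. Of the membrane anchor, Sdhc was called lower and Sdhd was not called. Sdha, the flavoprotein that oxidises succinate, had 108, 117 and 102 CPM in CD24- cells and 177, 181 and 181 CPM in CD24+ cells (0.72, SE 0.08, adjusted p from edgeR 4.03e-05), a 1.65-fold rise and the smallest adjusted p of any member. Sdhb, the iron-sulfur subunit bound to it, had 65.1, 67.0 and 62.0 CPM against 97.3, 85.9 and 86.9 CPM (0.47, SE 0.08, adjusted p from edgeR 0.0012). In both genes every CD24+ library lay well above every CD24- library. Sdhc, one of the anchors that hold the heme and the coenzyme Q site, fell from 87.5, 85.7 and 84.1 CPM to 68.9, 68.9 and 69.7 CPM (-0.31, SE 0.07, adjusted p from edgeR 0.00629). Sdhd, the other anchor, had 227, 233 and 199 CPM against 197, 195 and 178 CPM, and while its groups did not overlap it did not pass the test (-0.21, SE 0.09, adjusted p from edgeR 0.0679), though it did without CD24- replicate 3. Without CD24+ replicate 1 the values were 0.72 for Sdha, 0.41 for Sdhb, -0.32 for Sdhc and -0.25 for Sdhd. In GRCm38 Sdha lies on chromosome 13 from 74322254 to 74350280, Sdhb on chromosome 4 from 140961203 to 140979193, Sdhc on chromosome 1 from 171127165 to 171150603 and Sdhd on chromosome 9 from 50596357 to 50603812.

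Complex III also held genes in both directions, with 2 of 7 tested genes higher and 2 lower (28.6% each, near the 23.8% and 22.3% of all genes). Uqcrq, a small accessory subunit, rose most of all members, from 41.4, 45.6 and 53.7 CPM to 142, 74.0 and 91.6 CPM (1.11, SE 0.21, adjusted p from edgeR 0.00158). Much of the size of that rise lay in CD24+ replicate 1, without which the log2 fold change was 0.81. Uqcrb, another small subunit, rose from 32.2, 29.7 and 34.2 CPM to 61.1, 51.01 and 51.3 CPM (0.76, SE 0.11, adjusted p from edgeR 0.000227). Uqcrfs1, the Rieske iron-sulfur protein and one of the catalytic subunits, fell from 142, 137 and 131 CPM to 113, 109 and 102 CPM (-0.34, SE 0.08, adjusted p from edgeR 0.00445). Uqcrh, the hinge protein beside cytochrome c1, fell from 309, 308 and 366 CPM to 258, 285 and 241 CPM (-0.32, SE 0.10, adjusted p from edgeR 0.0203). In all 4 genes the groups did not overlap. The fall of Uqcrh was not called without CD24- replicate 3, without CD24+ replicate 3 or with reads of a single gene, and with either library left out 1 gene of complex III fell. The core proteins Uqcrc1 (0.10, adjusted p from edgeR 0.291) and Uqcrc2 (0.15, adjusted p 0.146) did not pass. Cyc1, the gene of cytochrome c1 and a catalytic subunit whose symbol lies outside the rule, rose from 125, 129 and 129.9 CPM to 215, 193 and 186 CPM (0.63, SE 0.08, adjusted p from edgeR 0.00013).

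**Figure D3:**
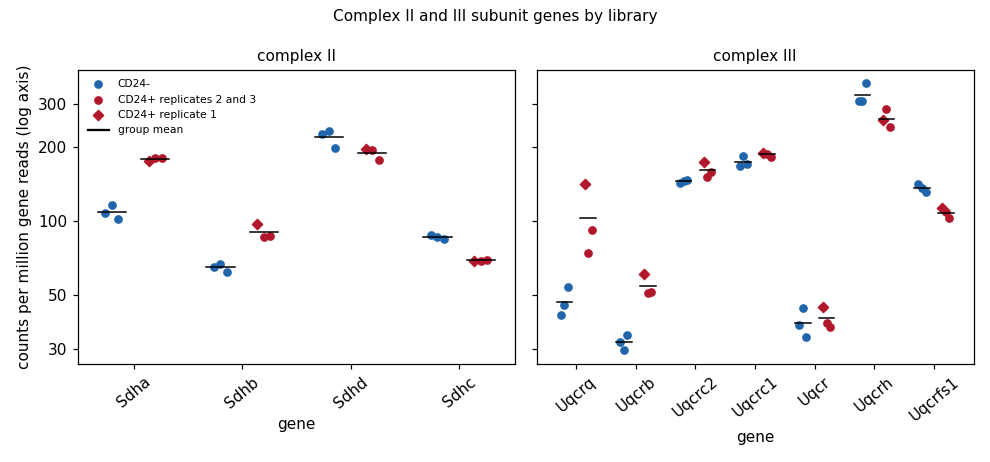
CPM of the complex II and complex III subunit genes in each library on a log axis, with group means as lines and CD24+ replicate 1 as diamonds. Sdha, Sdhb, Uqcrq and Uqcrb lie higher in CD24+, Sdhc, Uqcrh and Uqcrfs1 lie lower, and Sdhd is also lower without passing the test.

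Promoters of OXPHOS genes are known for sites of the nuclear respiratory factor NRF1 and of the ETS factor GABPA, and some for YY1. RefSeq promoter windows (250 bases before to 50 after a start site) were available for 67 of the 82 members and for 17492 protein-coding genes, and were searched on both strands. The NRF1 motif GCGCANGCG was found in 19 of the 67 members (28.4%) and in 9.63% of all genes, the YY1 motif AAGATGGCG in 8 (11.9%) and 2.14%, the ETS motif CCGGAAGT in 5 (7.46%) and 5.69%, and the motif TCAAGGTCA of the nuclear receptor ESRRA in 2 (2.99%) and 0.377%. Among members, the NRF1 motif stood in 7 of 21 that rose (33.3%), in 0 of 3 that fell and in 12 of 40 that did not pass (30%). A match describes letters in the window and is not a bound site. The bases before the start are shown for Sdha and Sdhb, which rose, and for Sdhd, which did not pass the test. They are also shown for Ndufs6, the largest rise of complex I, and for Uqcrh, the only gene that fell with a match. Capitals mark a match to the NRF1 motif, and in Uqcrh to the ETS motif, and no match shown overlaps one of another motif. All are from RefSeq (GRCm38.p6), read 5′ to 3′ along the gene's strand and ending at the base before the start. Sdha has 3 matches in this stretch, Sdhd and Ndufs6 have 1 each, and Sdhb has none. No window for Sdhc was used here.
Sdha, chr13:74350241-74350490, minus strand: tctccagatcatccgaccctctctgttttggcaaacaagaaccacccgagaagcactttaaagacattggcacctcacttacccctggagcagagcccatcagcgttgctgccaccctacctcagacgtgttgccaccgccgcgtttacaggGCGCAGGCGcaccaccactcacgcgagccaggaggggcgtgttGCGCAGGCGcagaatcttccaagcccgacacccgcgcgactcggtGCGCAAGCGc
Sdhb, chr4:140961021-140961270, plus strand: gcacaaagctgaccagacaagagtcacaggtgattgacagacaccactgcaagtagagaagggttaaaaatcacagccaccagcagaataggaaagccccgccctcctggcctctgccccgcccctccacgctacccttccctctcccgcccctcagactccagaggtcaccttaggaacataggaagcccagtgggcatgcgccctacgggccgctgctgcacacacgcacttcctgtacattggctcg
Sdhd, chr9:50603850-50604099, minus strand: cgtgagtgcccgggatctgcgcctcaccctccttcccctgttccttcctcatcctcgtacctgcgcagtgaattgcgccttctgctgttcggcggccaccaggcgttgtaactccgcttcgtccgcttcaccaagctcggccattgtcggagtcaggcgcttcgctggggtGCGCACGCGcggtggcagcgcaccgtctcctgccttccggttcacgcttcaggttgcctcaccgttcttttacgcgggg
Ndufs6, chr13:73328483-73328732, minus strand: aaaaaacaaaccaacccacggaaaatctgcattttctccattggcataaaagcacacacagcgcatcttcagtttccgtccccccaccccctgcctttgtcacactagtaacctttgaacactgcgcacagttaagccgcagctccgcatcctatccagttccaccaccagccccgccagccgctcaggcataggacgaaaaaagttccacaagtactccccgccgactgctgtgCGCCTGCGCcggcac
Uqcrh, chr4:116075071-116075320, minus strand: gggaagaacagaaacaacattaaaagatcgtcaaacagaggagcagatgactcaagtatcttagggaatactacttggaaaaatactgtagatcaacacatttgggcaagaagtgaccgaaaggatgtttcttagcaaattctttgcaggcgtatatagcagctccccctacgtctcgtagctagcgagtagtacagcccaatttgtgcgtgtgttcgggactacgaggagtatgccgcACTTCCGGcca

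Complex IV, cytochrome c oxidase, takes its catalytic core from the mitochondrial genome, and the nuclear subunits surround it. Of 12 tested subunit genes 5 rose (41.7%, where 23.8% of all genes did) and none fell, with a median log2 fold change of 0.23, and 0 were lower at an unadjusted p under 0.05 in edgeR or by DESeq2. Without CD24+ replicate 1 the median was 0.11 and 2 of the 12 rose, below the share of 21.1% of all genes that rose in that fit. The number that rose was also 2 without CD24+ replicate 3 or without CD24- replicate 2, and it was 3 without CD24- replicate 1 or 3. Cox6c, which has a single membrane span, rose most, from 81.1, 67.7 and 68.1 CPM to 159.6, 103 and 99.7 CPM (0.73, SE 0.17, adjusted p from edgeR 0.00512). Its value in CD24+ replicate 1 was far above the other CD24+ libraries, and without that library the log2 fold change was 0.48. Cox7a2l, a factor that joins complex IV to complex III in supercomplexes, had 152, 139 and 123 CPM against 227, 149 and 178 CPM (0.41, SE 0.14, adjusted p from edgeR 0.036), and here the groups overlapped.

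Several complex IV subunits exist in paired forms, and the ubiquitous form was the one expressed in both groups. Cox4i1 had 199, 214 and 202 CPM in CD24- and 286, 229 and 241 CPM in CD24+ cells (0.29, SE 0.09, adjusted p from edgeR 0.0272), while Cox4i2, the form known from lung, had at most 8 reads in a library. Cox6a1 (152 ± 10.4 CPM in CD24- and 188 ± 29.7 CPM in CD24+, SD, n = 3 each), Cox6b1 (113 ± 4.82 and 107 ± 2.54), Cox7b (107 ± 15.3 and 119.6 ± 26.5) and Cox7a2 (72.6 ± 7.07 and 81.5 ± 10.6) did not pass the test. The muscle form Cox6a2, the testis form Cox6b2, Cox7b2 and the muscle form Cox8b had at most 5 reads in a library and were not tested, and the muscle form Cox7a1 was at about 1 CPM in both groups. Cox8a rose from 149, 160.2 and 125 CPM to 212, 161 and 176 CPM (0.33, SE 0.12, adjusted p from edgeR 0.0444), with CD24+ replicate 2 barely above the highest CD24- library.

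Complex V consists of the F1 head, which makes ATP, and the membrane-bound Fo part with its ring of c subunits. Of its 15 tested subunit genes 4 rose and none fell, a share of 26.7% that is close to the 23.8% of all genes that rose, and 0 were lower at an unadjusted p under 0.05 in edgeR or by DESeq2. Atp5b, the catalytic beta subunit, had the highest level of all members, both in CPM and per kilobase of transcript. Per kilobase, counting the reads whose sequence occurs in a single protein-coding gene, it had 748 ± 16.9 CPM per kb in CD24- and 844 ± 28.6 CPM per kb in CD24+ cells (SD, n = 3 each). By annotated reads it had 1679, 1674 and 1598 CPM against 1986, 1874 and 1837 CPM, and the groups did not overlap, but the difference missed the threshold (0.20, SE 0.08, adjusted p from edgeR 0.0581). Atp5a1, the alpha subunit, had 316 ± 13.9 and 332 ± 9.25 CPM per kb on the same per-kilobase scale. Atp5c1, the gamma subunit of the rotor, differed by only -0.01 (SE 0.07).

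The c subunit, whose ring turns with the passing protons, is encoded by 3 genes that give the same mature protein. Atp5g2 rose from 143, 138 and 130.5 CPM to 223, 185 and 196 CPM (0.55, SE 0.09, adjusted p from edgeR 0.000628). Atp5g1 rose from 70.3, 65.6 and 69.7 CPM to 94.6, 93.3 and 78.4 CPM (0.37, SE 0.09, adjusted p from edgeR 0.00889). Atp5g3, which had the most reads of these genes, had 254, 242 and 246 CPM against 285, 284 and 256 CPM and did not pass (0.15, SE 0.08, adjusted p from edgeR 0.131). The calls of Atp5g2 and Atp5g1 were lost when reads shared with pseudogenes were left out. The differences among these genes were not tested. Atp5e, the epsilon subunit of the central stalk, rose from 71.5, 67.8 and 67.0 CPM to 124, 83.4 and 95.1 CPM (0.54, SE 0.13, adjusted p from edgeR 0.00675).

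Of the 3 matches that are not subunits 1 rose. Cox4nb, of the endoplasmic reticulum, had 46.1, 52.7 and 52.4 CPM against 70.7, 63.4 and 59.2 CPM and rose (0.35, SE 0.10, adjusted p from edgeR 0.0157). Atp5s (0.01) and Atp5sl (-0.34, adjusted p from edgeR 0.0672) did not pass.

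The CPM of the subunit genes were also summed by complex, without scaling for transcript length. Such a sum describes RNA, and abundant transcripts such as Atp5b weigh most in it. Over all 79 subunit genes it was 8576, 8695 and 8175 CPM in CD24- and 10463, 9258 and 9157 CPM in CD24+ cells, a ratio of means of 1.13, and 1.09 without CD24+ replicate 1. The ratio was 1.22 for complex IV, 1.15 for complex I, 1.13 for complex V, 1.10 for complex II and 1.02 for complex III, where the genes that rose and the genes that fell offset each other. Without CD24+ replicate 1 the ratios of complexes I, II, IV and V lay between 1.08 and 1.12 and that of complex III was 0.98.

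CD24+ replicate 1 stood apart for these genes. It was the highest of the 3 CD24+ libraries for 62 of the 76 tested members (81.6%) and for 38.8% of all genes tested, and its level over the mean of the other 2 had a median of 0.22 (log2) over the members and 0.00 over all genes. Genes with short transcripts in general also stood high in this library, though less so than members of the same length. Over the 432 tested genes with a transcript under 1 kb the median was 0.22 and the library was highest in 74.3%. Of the 76 members 41 are that short, with a median of 0.28 and the library highest in 85.4%. Over the 1856 genes of 1 to 2 kb the values were 0.11 and 56.0%, and over the 25 members of that length 0.20 and 84%. The 7 members of 2 to 4 kb had a median of 0.03, against 0.01 over all genes of that length. The 3 members of 4 kb or more had a median of 0.21 and the library highest in 100%. All genes of that length had -0.09 and 23.6%. The part of transcript length in the result was not tested. Without that library 20 members rose and 5 fell, where 21.1% and 20.6% of all genes did, and the median of the members was 0.12. The medians of complexes I to V were then 0.17, 0.08, 0.08, 0.11 and 0.08. The 20 that rose were all among the 27, as were the 5 that fell, and the lost calls were Cox4i1, Cox7a2l, Cox8a, Ndufa13, Ndufa7, Ndufb6 and Ndufc2.

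Many OXPHOS genes have processed pseudogenes, and a read that occurs at several places in the genome was given a single annotation. Reads were matched by exact sequence to GENCODE M21 transcripts, and the share of a member's matching reads that the deposited files annotate to it was taken. It was under 90% for 27 tested members, which gave 11 rises and no fall (median 0.27, with 1 lower at an unadjusted p under 0.05 in edgeR and 0 by DESeq2), and at least 90% for 49 tested members, which gave 16 rises and 5 falls (median 0.17). Over all genes tested 23.8% rose and 22.3% fell. With CD24+ replicate 1 left out the first set gave 11 rises (median 0.17) and the second 9 rises and 5 falls (median 0.10). In that fit 21.1% of all genes rose and 20.6% fell, so 9 of 49 lay below the share that rose and 11 of 27 above it. Without CD24+ replicate 3 the second set gave 10 rises and 4 falls, where 2109 of 11194 genes rose and 1991 fell. Cox5b had the lowest share at 11.8%, so its 5.71 ± 1.81 and 5.32 ± 0.459 CPM (SD, n = 3 each) understate its level. Atp5l had 30.6%, Cox7c 38.3%, Atp5h 52.0% and Uqcr 53.6%, with most of the remaining reads of Cox7c annotated to Pitpna (49.1%) and of Atp5l to a LINE element (40.6%). Among genes with large changes, Uqcrb had 62.7%, Ndufs6 69.0% and Atp5g2 74.5%. When reads were instead counted where their sequence occurs in a single protein-coding gene, 27 members rose and 5 fell, where 24.4% and 22.6% of all genes tested did, and the log2 fold changes were 0.93 for Ndufs6, 0.75 for Uqcrb and 0.50 for Atp5g2. That count still holds reads shared with pseudogenes. With those left out as well, 24 members rose and 4 fell, where 2898 and 2629 of 12118 genes did. The calls of Atp5g1, Atp5g2, Cox8a, Ndufb4, Ndufb6 and Uqcrh were then lost. Other ways of counting gave fewer rises. With the median coverage of a transcript, the estimate the study used, 16 of 64 members rose and 6 fell, where 17.2% and 19.1% of all genes tested with limma did. With each distinct sequence counted once, 5 rose and 0 fell, where 19.4% and 14.0% of all genes did.

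The members lie on nearly all chromosomes, and the changes of some went with those of the genes around them. For each tested member the median log2 fold change of the other tested genes within 5 Mb was taken. Its Pearson correlation with the member's own log2 fold change was 0.67 over the 76 members (0.60 at 2 Mb and 0.72 at 10 Mb), and it was 0.14 at 5 Mb over the 9591 tested genes with a coordinate, whose own changes spread far more widely. Members near each other share neighbours and all values share the same libraries, so this is a description. At 5 Mb the neighbours' values had a median of 0.05 over the 27 members that rose (above 0 in 24 of them). That median was -0.60 over the 5 that fell and -0.02 over the 44 not called. In 14 members the neighbours' median lay beyond 0.2 in either direction. All 14 had the sign of their neighbours, and 12 of them were called, where 70.6% of all genes with such neighbours had their sign and 58.0% were called.

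Ndufb11, Sdhc and Uqcrfs1 lay among genes that fell, and Uqcrh did not (neighbours' median -0.02). Ndufb11 on the X chromosome had a neighbours' median of -0.77, with 12 of 16 neighbours called lower. Sdhc on chromosome 1 had a median of -0.63, with 37 of 47 neighbours called lower, and Uqcrfs1 on chromosome 13 had -0.51, with 15 of 24. On the other side, Ndufs4 had a neighbours' median of 0.70 (13 of 20 called higher), Ndufs6 0.44 (20 of 34) and Sdha 0.43 (18 of 31), all on chromosome 13, which thus carries members with neighbours in both directions. Ndufb9 on chromosome 15 had 0.41 (16 of 24), and with Ndufa6, Cox6c and Atp5g2 all 4 members of that chromosome rose. Other rises stood without such neighbours. Uqcrq, the largest rise, had a neighbours' median of 0.01, Sdhb 0.00, Ndufs8 0.06 and Ndufb4 0.03. Ndufa5 had neighbours at -0.34 and itself -0.03 (adjusted p from edgeR 0.822). Ndufs6 overlaps an exon of Mrpl36, Ndufs3 one of Kbtbd4 and Ndufb11 one of Rbm10, and since the library kit does not mark strand, reads in these overlaps cannot be told apart.

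**Figure D4:**
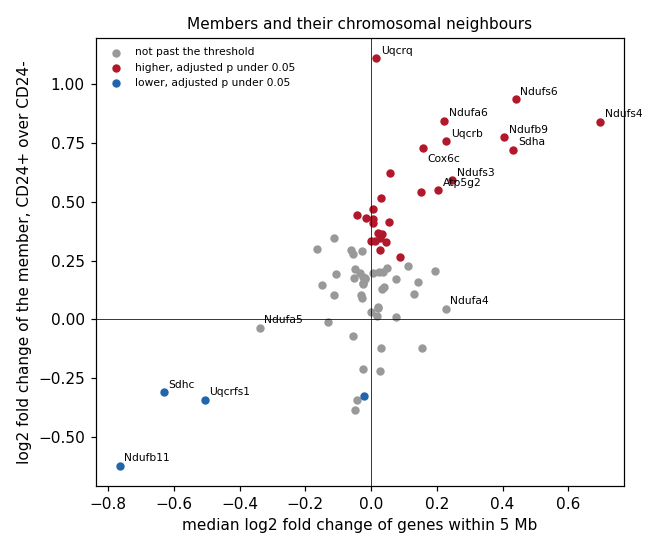
Log2 fold change of 75 tested members (vertical) against the median log2 fold change of the other tested genes within 5 Mb of it (horizontal). Ndufb11, Sdhc and Uqcrfs1 lie at the lower left and Ndufs4, Ndufs6, Sdha and Ndufb9 at the upper right, while Uqcrq, at 1.11, has a neighbours' median of 0.01.

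The mitochondrial genome encodes the remaining 13 subunits, which assemble with the nuclear ones. Reads were assigned to these genes by exact sequence, since the files locate many of them at nuclear copies of the mitochondrial genome (all reads of mt-Co2, mt-Co3, mt-Atp6, mt-Atp8, mt-Nd3 and mt-Nd4l). None of the 13 passed the edgeR test, 0 had an unadjusted p under 0.05, and in all 13 the groups overlapped. The highest of the 6 libraries was CD24+ replicate 1 in each gene. For mt-Co1, the catalytic subunit of complex IV, the levels were 10810.0, 11275 and 9199 RPM (reads per 1000000 mapped reads) in CD24- and 18388, 9319 and 9810.0 in CD24+ cells. The log2 fold change was below 0 in 1 of the 13. Without CD24+ replicate 1 it was below 0 in 12 of the 13, and mt-Nd1 (-0.49), mt-Nd3 (-0.43), mt-Nd2 (-0.31), mt-Nd4l (-0.27), mt-Nd4 (-0.26) and mt-Atp8 (-0.24) passed the test as lower in CD24+ cells, with adjusted p from edgeR between 0.00269 and 0.0325. By sequence, reads matching mitochondrial transcripts were 4.51%, 4.70% and 4.26% of mapped reads in CD24- and 7.56%, 3.91% and 4.02% in CD24+ cells, a difference of 0.675 percentage points (two-sided exact permutation test, p = 1). The share of mapped reads located on the mitochondrial chromosome was 2.31%, 2.41% and 2.22% in CD24- and 3.70%, 1.98% and 1.95% in CD24+ cells, a difference of 0.232 percentage points (two-sided exact permutation test, p = 1). Without CD24+ replicate 1 the difference was -0.348 percentage points, with p = 0.2, the smallest that this exact permutation test of 3 against 2 can give.

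**Figure D5:**
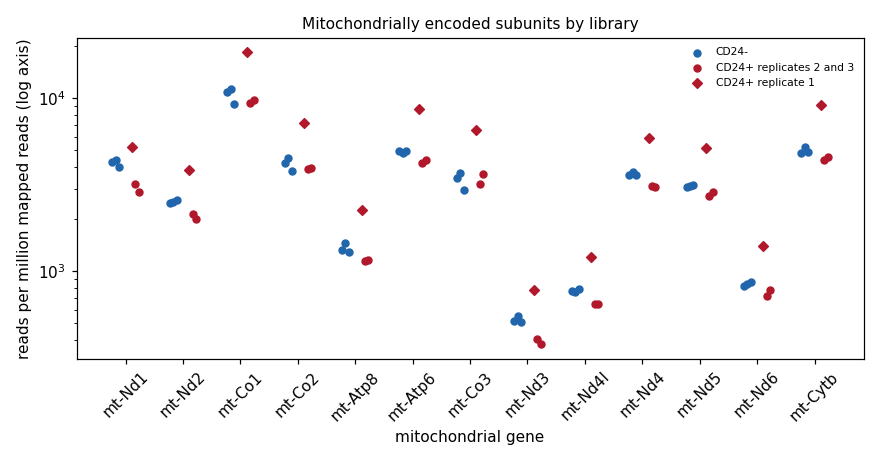
RPM of the 13 mitochondrially encoded subunits in each library on a log axis, by exact sequence match, with CD24+ replicate 1 as diamonds. That library is the highest for every gene, and the other CD24+ libraries lie near or below the CD24- libraries.

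Genes that assemble the complexes or feed them with electrons were taken as lists from general knowledge. Of 43 tested assembly factors 4 rose and 3 fell (9.30% and 6.98%, where 23.8% and 22.3% of all genes did), with a median log2 fold change of -0.03. Without CD24- replicate 3, 6 rose and 6 fell, and the median was 0.03 there and without CD24+ replicate 3, and -0.09 without CD24+ replicate 1. The rises were Ndufaf5 (0.75, adjusted p from edgeR 0.00183) for complex I, Sdhaf1 (0.55), which helps place the iron-sulfur clusters of Sdhb, Uqcc1 (0.52) for complex III and Cox11 (0.39), which brings copper to complex IV. The falls were Lrpprc (-0.56, adjusted p from edgeR 0.000858), which stabilises mitochondrial messenger RNAs, Cox20 (-0.50) and Acad9 (-0.26). Of 7 electron carriers and further subunits 2 rose, Cyc1 and Etfb (0.43), and none fell (0 at an unadjusted p under 0.05 in edgeR and 0 by DESeq2). Of 13 genes of coenzyme Q synthesis none rose in edgeR and 1 fell, Coq8b (-0.62), while 1 was higher at an unadjusted p under 0.05 and 1 by DESeq2.

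Regulators of mitochondrial biogenesis drive subunit genes in many tissues. Of 15 tested here, 1 rose and 4 fell (6.67% and 26.7%, where 23.8% and 22.3% of all genes did), and the nuclear respiratory factors themselves did not pass the test. Nrf1 had 58.0, 58.6 and 66.0 CPM against 59.8, 68.2 and 63.8 CPM (0.08, adjusted p from edgeR 0.515). Gabpa (0.01), Tfam (-0.07), which packages mitochondrial DNA and acts in its transcription, and Ppargc1b (-0.10) also did not pass. The coactivator Ppargc1a, with 58 reads in all, did not pass the filter on low counts. It had 0.316, 0.379 and 0.226 CPM against 0.944, 1.07 and 1.26 CPM, without overlap. Without CD24+ replicate 1 it passed the filter, with a log2 fold change of 1.87. It did so through the CD24+ libraries alone and with few reads, so this value is not read as a call. Esrra, a nuclear receptor of OXPHOS promoters, fell from 43.5, 43.0 and 33.3 CPM to 36.0, 29.2 and 26.9 CPM (-0.40, SE 0.14, adjusted p from edgeR 0.0383), with overlap between the groups. The coactivator Pprc1 fell by 0.39 and the mitochondrial helicase Twnk by 0.50 on the log2 scale. Tfb1m, which methylates mitochondrial ribosomal RNA, rose by 0.49 (adjusted p from edgeR 0.011), and its relative Tfb2m, which acts in mitochondrial transcription, fell by 0.85 on the log2 scale (adjusted p 0.000158). Without CD24+ replicate 3 none of the 15 was called higher and 2 were lower.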

How the data were processed

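mRNA libraries (TruSeq RNA v2, no strand kept) of 3 plates each of CD24- and CD24+ cells were sequenced on an Illumina HiSeq. The authors trimmed reads to 47 nt, collapsed identical reads and placed every sequence on the mouse genome (mm9 in the submitters' processing notes) where it matched exactly, with a single location and annotation. The deposited values are raw counts per mapped sequence, neither normalized nor pooled by the authors. Exact matching misses most reads over exon junctions.

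Here the deposited counts were summed per annotation, repeats and noncoding RNA were set aside, and genes that passed filterByExpr entered the edgeR 4.0.16 model (TMM, quasi-likelihood F test, Benjamini-Hochberg, threshold 0.05) in R 4.3.3. Levels of mitochondrial genes are scaled like CPM but to all mapped reads (RPM). Alternatives were DESeq2 1.42.0, other scalings and filters, distinct sequences, reads of a single gene, a replicate block, each library left out, and median coverage with a regularizer of 10, quantile normalized and tested with limma 3.58.1. The count that also leaves out reads shared with pseudogenes, and mitochondrial reads by sequence, were added after seeing the data. Counts were also simulated with the depths and dispersion trend of these libraries, with 200 better expressed genes changed and no library set apart. On these the test called 84% of 100 genes changed 1.5-fold and 0.0738% of unchanged genes. In the data far more genes were called, and the median change of the members was smaller than 1.5-fold. Gene coordinates and transcripts are GENCODE M21 (GRCm38).

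No 2 libraries of a group were alike within sampling noise. Chi-square over degrees of freedom was 1.71 between CD24- replicates 1 and 2, the most alike, and 9.33 to 15.2 in the other pairs. Members, lists, complex I modules, neighbourhoods and promoter motifs were chosen with earlier results of these data known, and symbols fixed membership. Genes named with values are Cd24a, the 2 largest called rises and falls and the most abundant member of each complex, alternative subunit forms, all Sdh genes, non-subunits, the extreme called genes of each related list and the nuclear respiratory factors. Others named were chosen after their values were seen. Some genes are not reported individually here.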

Additional observations from a re-analysis of the deposited data

How the results depend on the processing

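Of the 32 members called, 17 (13 higher, 4 lower) stayed called in the same direction under each alternative on read counts other than distinct sequences, the replicate block and each left-out library included: Atp5e, Cox6c, Ndufa6, Ndufb9, Ndufc1, Ndufs3, Ndufs4, Ndufs6, Ndufs8, Sdha, Sdhb, Uqcrb and Uqcrq for the rises, and for the falls Ndufb11, Sdhc and Uqcrfs1 among others. The share of all called genes that stayed called in this way was not computed. The called number of members was 20 to 29 higher and 4 to 6 lower with a library left out. Over all genes tested, between 2109 of 11194 and 2810 of 11302 rose in these fits. Between 1892 of 11256 and 2548 of 11302 fell. Counting each distinct sequence once, which caps an abundant short transcript at its number of start positions, gave 5 members higher, 0 lower (1 at an unadjusted p under 0.05 in edgeR) and a median of 0.0230, with 1549 genes lower in all. The medians were then -0.0122 for complex II, -0.0551 for complex III, -0.0055 for complex IV, -0.0506 for complex V, 0.0499 for complex I assembly factors and -0.0103 for the tricarboxylic acid cycle, and Cox4i1 (-0.0583), Cox8a (-0.0055) and Atp5o (-0.00163) turned sign, 29 of the 32 called members keeping theirs. The log2 ratio of summed levels was then 0.0450 for complex IV, -0.0437 for complex V and 0.0306 for all, and the mitochondrial share differed by -0.0147 percentage points. Median coverage gave a value for 25 of the 32 called members and the same call for 14 higher and 3 lower, and of those listed above Cox6c (0.03) was not called and Ndufc1, Ndufs4, Sdhc and Uqcrq had no value. It gave 16 members and 1564 genes higher, and medians of 0.0941 for all members, 0.135, 0.35, -0.00478, 0.124 and 0.0723 for complexes I to V, 0.0874 for complex III assembly, 0.0342 for coenzyme Q synthesis and 0.0212 for the tricarboxylic acid cycle. Reads of a single protein-coding gene gave medians of 0.24 for complex I assembly and 0.16 for coenzyme Q synthesis. With reads shared with pseudogenes left out as well, these were 0.25 and 0.16. With a library left out, the median of coenzyme Q synthesis ran from 0.0671 to 0.115. That of the biogenesis regulators ran from -0.114 to 0.0169. The value 0.0169 came without CD24+ replicate 1 and counts Ppargc1a, which passed the filter on low counts in that fit. Over the 15 regulators of the main test the median was 0.0121 there. The mitochondrial difference ran from -0.348 to 0.529 percentage points, negative only without CD24+ replicate 1. The cause of these shifts was not tested.

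The groups share replicate numbers, but same-numbered libraries did not deviate together (r = 0.0143, -0.251 and -0.31), so the numbers were not taken as pairs. With the replicate number as a block, 25 members rose and 5 fell, with a median of 0.20, and 2376 genes rose and 2117 fell. Counts limit the 6 untested members. Whether the plates of a group came from separate sorts is not given in the sources used here.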

Other observations

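The enzymes of pyruvate dehydrogenase and the tricarboxylic acid cycle supply NADH and succinate. Of 17 tested genes 4 rose and 3 fell (23.5% and 17.6%, near the 23.8% and 22.3% of all genes tested), with a median log2 fold change of 0.08. Without CD24- replicate 1, 1 rose and 2 fell, without CD24- replicate 2, 3 rose and 1 fell, and without CD24+ replicate 2 the median was 0.03. Fh1, fumarase, which acts on the product of complex II, fell from 153, 165 and 168 CPM in CD24- to 112, 111 and 103 CPM in CD24+ cells (-0.57, SE 0.08, adjusted p from edgeR 0.000195). Its groups did not overlap. Rises included Pdha1 (0.27), Pdhx (0.32) and Idh3b (0.35), and the other falls were Ogdh (-0.31) and Dlst (-0.22), whose products belong to the same 2-oxoglutarate dehydrogenase complex.

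The mitochondrial ribosome makes the 13 subunits encoded in the organelle. Of its 75 tested genes 7 rose and 5 fell (9.33% and 6.67%, where 23.8% and 22.3% of all genes did), with a median of 0.07. With CD24+ replicate 1 left out, 5 rose and 10 fell, with a median of 0.00. Without CD24+ replicate 3, 6 rose and 2 fell, and without CD24+ replicate 2 or CD24- replicate 1 or 2, 5 rose and 3 fell. Mrps6 rose from 201, 216 and 262 CPM to 342, 363 and 317 CPM (0.59, SE 0.11), and Mrpl32 fell from 59.5, 61.0 and 55.3 CPM to 30.2, 25.9 and 23.4 CPM (-1.16, SE 0.11, adjusted p from edgeR 1.37e-05). Mrpl36, which also rose (0.55), overlaps Ndufs6.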
